A study of Mus musculus with 8 samples.

Results

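T cells that carry transcripts of several genes of a chosen set were picked out of the pancreatic infiltrate of NOD mice, a strain with spontaneous autoimmune diabetes. A cell belonged to this population when at least 3 of 10 genes had at least 1 unique molecular identifier (UMI, a tag that marks each captured transcript). The 10 genes were Myb, Slamf7, Epcam, Itgax, Ptprk, Kcnc1, Eomes, Pde2a, Plek and H2-Ob. Cells first had to have at least 500 detected genes, under 10% mitochondrial UMIs, at least 2 UMIs summed over Cd3d, Cd3e, Cd3g, Trac, Trbc1 and Trbc2, and no more than 1 over 6 B cell and macrophage genes. The rule found 1419 of 76819 T cells (1.85%), called 3-of-10 cells here, and left 75400 other T cells for comparison. The 10 genes chose the cells, so their levels below are a description without a test.

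The 8 libraries were droplet 3′ single-cell libraries of cells sorted as CD45+, CD3+ and TCRβ+ from the pancreas. All mice were labelled as female NOD mice 3 to 4 months old in the sample characteristics and 3 to 5 months old in the treatment protocol. The active library came from mice above 600 mg/dl blood glucose and the onset library from mice at 250 mg/dl, both harvested on day 1. New-onset mice at 200 to 300 mg/dl received either the vehicle (an ethanol, Tween 20 and PEG300 mix) or PPCA, with 1 library each on days 2, 3 and 4 of the sample names. PPCA joins nutlin-3 at 50 mg/kg, an inhibitor of the p53 antagonist MDM2, with MK-1775 at 25 mg/kg, an inhibitor of the mitotic gatekeeper kinase WEE1. The number of mice per library is not given in the sources used here, so p-values measure only the spread between these libraries. The stated purpose was to follow how treatment changes CD4 and CD8 T cell subsets in the diabetic pancreas.

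Depth ran from 36934580 to 67603740 UMIs per library. Xist and Y-linked transcripts went against the labelled sex in 4 libraries: vehicle days 2 and 3 and PPCA days 3 and 4 had Xist at 0.304 to 0.757 CPM (the share of all UMIs, scaled to a total of 1000000) and 188 to 276 CPM of Y-linked genes, while the other 4 had 418 to 618 CPM of Xist. On day 3 both arms lacked Xist, and on days 2 and 4 the arms differed in it. Of 79727 distinct barcodes, 740 occurred in more than 1 library, and 23 of the 1419 cells had such a barcode. No barcode was a 3-of-10 cell in more than 1 library.

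Myb is a transcription factor of progenitor and developing lymphocytes. Slamf7 is a receptor of the SLAM family that binds its own kind on other leukocytes, Epcam an adhesion molecule of epithelia, and Itgax the CD11c integrin chain best known from dendritic cells. Eomes is a T-box transcription factor of cytotoxic and memory lymphocytes. Unconventional T cells, such as those selected on self-ligands in the thymus, can lack both CD4 and CD8 coreceptors and carry receptors shared with NK cells.

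Promoter sequence is shown for 3 of the 10 genes because the cells were chosen for transcripts of these genes together. The windows are 250 bases before to 50 after the start in RefSeq on GRCm38.p6, 5′ to 3′ on the strand of the gene, and all 10 genes matched an entry, with 14 windows in all. Capitals mark a match to the T-box motif GGTGTGA on either strand. Of the 14 windows, 2 held it, those of Myb and Kcnc1, against 3.98% of 32851 promoters. The motifs AACGG (MYB, in 17.4% of promoters) and TGTGGTT (RUNX, in 5.27%) matched in none of the 14. The windows of Myb (chr10:21160935-21161234, minus strand), Kcnc1 (chr7:46396218-46396517, plus strand) and Itgax (chr7:128129300-128129599, plus strand) read as follows.
Myb: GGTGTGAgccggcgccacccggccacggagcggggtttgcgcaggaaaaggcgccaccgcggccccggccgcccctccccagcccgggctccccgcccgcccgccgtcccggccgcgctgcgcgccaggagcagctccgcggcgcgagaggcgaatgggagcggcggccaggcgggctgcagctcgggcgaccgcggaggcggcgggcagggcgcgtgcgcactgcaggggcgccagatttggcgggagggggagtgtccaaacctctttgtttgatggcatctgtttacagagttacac
Kcnc1: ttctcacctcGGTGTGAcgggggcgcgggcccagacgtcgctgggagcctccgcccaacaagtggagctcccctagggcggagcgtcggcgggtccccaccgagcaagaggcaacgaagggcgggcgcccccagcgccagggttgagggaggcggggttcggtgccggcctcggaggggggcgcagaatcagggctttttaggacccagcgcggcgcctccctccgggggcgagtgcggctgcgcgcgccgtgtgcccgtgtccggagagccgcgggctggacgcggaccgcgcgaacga
Itgax: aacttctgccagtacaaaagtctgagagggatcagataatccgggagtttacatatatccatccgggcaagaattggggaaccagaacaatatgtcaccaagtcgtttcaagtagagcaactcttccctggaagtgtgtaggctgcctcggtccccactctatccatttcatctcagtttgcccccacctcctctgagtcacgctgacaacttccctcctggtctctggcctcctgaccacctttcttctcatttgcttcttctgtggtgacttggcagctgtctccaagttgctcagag

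Which of the 10 genes put a cell in the population differed widely. Eomes was detected in 78.5% of the 3-of-10 cells, Pde2a (a phosphodiesterase of cyclic nucleotides) in 66.5%, Slamf7 in 53.4%, Kcnc1 (a voltage-gated potassium channel) in 44.5%, Plek (pleckstrin) in 43.8% and Myb in 39.2%. Epcam was detected in 18.5%, H2-Ob (a chain of the class II modulator H2-O) in 12.7%, Ptprk (a receptor phosphatase) in 6.41% and Itgax in 5.78%. Of 889 cells with exactly 3 of the genes, 537 (60.4%) had none of Myb, Epcam, Itgax, Ptprk or H2-Ob. The commonest sets of 3 were Slamf7, Eomes and Pde2a in 94 cells and Slamf7, Eomes and Plek in 92. Itgax, at 7.23 to 42.0 CPM in the 3-of-10 cells of each library, was at 0 to 0.152 CPM in the other T cells.

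Levels of the leading genes varied between libraries. Myb was at 116 CPM in active disease, 76.9 at onset, 115, 102 and 190 on days 2, 3 and 4 of vehicle, and 180, 97.4 and 161 with PPCA. It was lowest at onset, and every library lay above the 3.64 to 8.87 CPM of other T cells. Slamf7 was at 65.3 CPM in active disease, 122 at onset, 135, 98.3 and 104 on the 3 vehicle days, and 228, 129 and 138 with PPCA. Eomes was the steadiest of the 3, between 193 CPM on day 4 of vehicle and 286 on day 2 of PPCA, with at most 23.9 in other T cells. Epcam was at 18.3 CPM on day 3 of vehicle and 61.4 on day 4 of vehicle, its lowest and highest, against 2.42 to 5.95 in other T cells.

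The genes were also detected together, which is how the set was put together and is given as a description. In cells chosen by at least 3 of the other 9 genes, Myb was detected in 27.6% of 1192 cells, against 2.32% of the remaining T cells. Eomes was detected in 59.0% of 743 such cells against 6.19%, and Plek in 27.3% of 1097 against 1.36%. Epcam followed at 12.3% of 1320 against 1.69%, and Itgax at 5.11% of 1409 against 0.0451%. Each of the 10 genes was higher in the chosen cells in 8 of 8 libraries, and the chosen cells also had more UMIs, which was not matched here.

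The 3-of-10 cells were mostly CD8 T cells. Cells in which Cd8a or Cd8b1 was detected without Cd4 (CD8-gated) made up 1038 of the 1419 cells (73.2%), against 30.8% of the other T cells. Another 75 (5.29%) were CD4-gated, 121 (8.53%) had both coreceptors, and 185 (13.0%) had neither. Among CD4- and CD8-gated cells, the CD8-gated share was higher in the 3-of-10 cells in 8 of 8 libraries, by 49.0 percentage points on average (exact two-sided sign-flip test, p = 0.00781, the smallest that 8 libraries allow). The share was 87.4% in the vehicle library of day 4 and 92.8% to 96.6% in the others, against 29.1% to 60.1% in other T cells, so the groups did not overlap.

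Cells with neither coreceptor were less frequent among the 3-of-10 cells, by 10.4 percentage points on average and in 8 of 8 libraries (exact two-sided sign-flip test, p = 0.00781). The 3-of-10 cells were deeper, with medians of 6025 to 9828 UMIs per library against 3932 to 6492 in other T cells. T cells with at least 2000 UMIs were then thinned to 2000 before the rule was applied. The 1327 shallower T cells, 7 of them 3-of-10 cells, were left out. After thinning 322 cells qualified, and the share with neither coreceptor was 4.62 points higher than in other T cells (5 of 8 libraries, exact sign-flip p = 0.305). The CD8-gated excess was 38.1 points in the thinned cells, in 8 of 8 libraries.

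The cells differed by how many of the 10 genes they carried. Exactly 3 genes were found in 889 cells, 4 in 306, 5 in 115 and 6 or more in 109. Of cells with 3 genes 703 of 889 were CD8-gated, while of cells with 6 or more 41 of 109 (37.6%) were CD8-gated, 12 were CD4-gated and 52 (47.7%) had neither coreceptor. Their median depths were 7441 and 6838 UMIs, and doublets scored by Scrublet were 11.2% and 1.83%. Cells with 2 genes, just outside the threshold, numbered 3166, and 2386 of them were CD8-gated.

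Several NK-type and effector transcripts were highest in cells with 3 or 4 of the 10 genes and lower in the 109 cells with 6 or more, to different degrees. Klra1, an inhibitory receptor of the Ly49 family, stood at 1.55 CPM in cells with none of the 10 genes, 107 in cells with 3, 182 in cells with 4 and 3.42 in cells with 6 or more. Gzmm, a granzyme, stood at 77.2 CPM in cells with 3, 99.8 in cells with 5 and 5.70 in cells with 6 or more, and in cells with 5 or more it was lower than in cells with 3 or 4 in 6 of 8 libraries. The chemokine gene Ccl5 stood at 5288 and 719 CPM and Ccl4 at 278 and 11.4 CPM in the same cells. Cd8b1 was at 512 and 119 CPM. Il7r, the interleukin-7 receptor chain, had no such peak, at 531 CPM with none of the genes, 453 with 3 and 116 with 6 or more. It was lower with 5 or more than with 3 or 4 in 7 of 8 libraries. Ctla2a had no clear order, at 507, 677, 487 and 773 CPM with 3, 4, 5 and 6 or more genes, and was higher with 5 or more than with 3 or 4 in 5 of 8 libraries. Nkg7, a cytotoxic granule gene, was at 910 CPM with 3 and 590 with 6 or more, and lower with 5 or more in 8 of 8 libraries, but stayed above the 167 CPM of cells with none of the 10 genes. Gzmk was at 89.8 and 58.2 CPM, lower in 6 of 8, against 5.57 with none.

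Another set of transcripts ran the opposite way. Sox4, a transcription factor of immature and activated lymphocytes, stood at 10.8 CPM in cells with 3 of the genes and 225 CPM in cells with 6 or more. Gpr183, an oxysterol receptor that guides cell position, was at 153 and 762 CPM and Ikzf2 (Helios) at 66.1 and 188 CPM. The kinase gene Rps6ka5 was at 9.82 and 169 CPM, the B cell coactivator Pou2af1 at 7.44 and 112 CPM, and the tubulin gene Tubb2b at 2.67 and 86.7 CPM. In cells with 5 or more genes, Sox4, Gpr183, Rps6ka5, Pou2af1 and Ikzf2 were higher than in cells with 3 or 4 within 8 of 8 libraries, while Klra1 and Cd8b1 were lower in 8 of 8. These genes were picked after their values were seen, so no test was made.

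**Figure D1:**
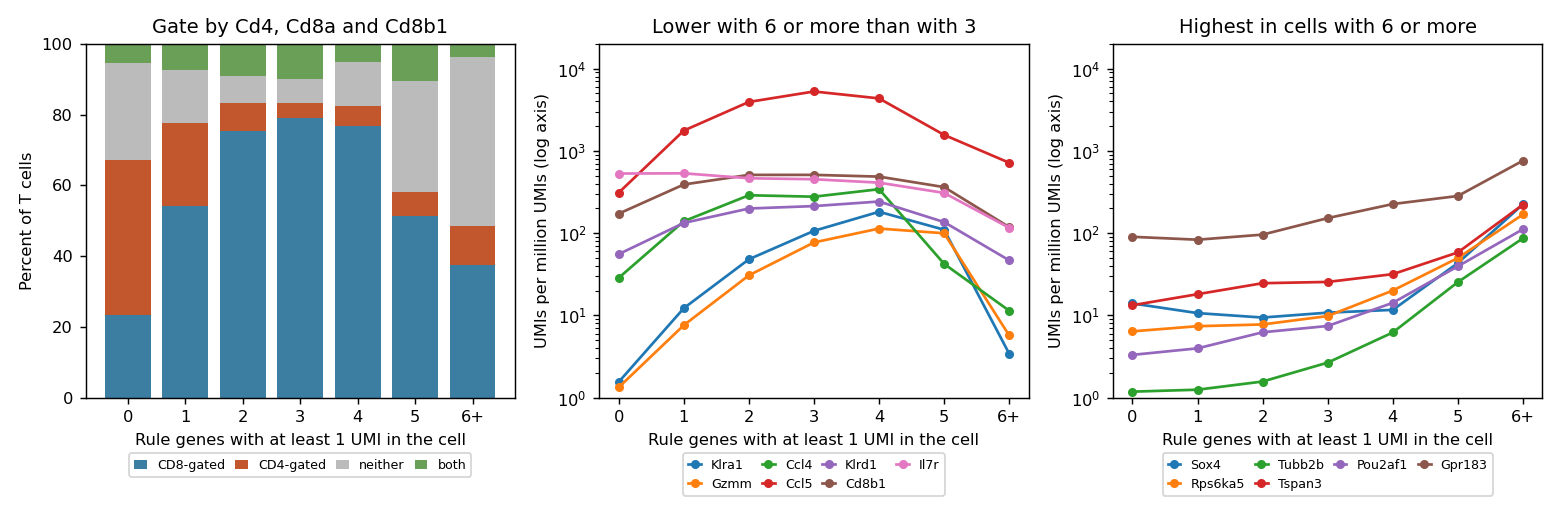
Left, percent of T cells in each coreceptor gate by the number of the 10 genes detected (x axis). Middle and right, level in CPM (log axis), pooled over the 8 libraries; Klra1 peaks at 182 in cells with 4 genes and is 3.42 in cells with 6 or more, where Sox4 reaches 225.

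Markers of other lineages were checked in the cells with many of the genes. Among cells with 6 or more genes, Zbtb16 (the NKT and MAIT regulator PLZF), Ncr1, Fcer1g, Tyrobp, Cd74 and Flt3 were listed at 0 UMIs. In cells with none of the 10 genes they were also rare, from 0.0938 CPM (Flt3) to 2.02 CPM (Cd74). These 0 values in so few cells therefore cannot tell the cells apart. Trdc was at 4.56 CPM against 7.73 in cells with none of the 10 genes, and Cd3e and Trac were at 789 and 838 CPM. Krt18, a keratin gene, was at 21.7 CPM and its partner Krt8 at 0. The dendritic marker genes other than Itgax summed to 102 to 146 CPM in the 3-of-10 cells and 119 to 145 CPM in other T cells, with Flt3, Clec9a, Siglech and Cd209a at 0. Cst3, which T cells also express, made up nearly all of that sum (122 and 124 CPM on average). Batf3, from the same list, was higher (3.07 on the log2 scale, adjusted p = 0.000331, edgeR) on 11 UMIs, in 4 of 8 libraries. Markers of NK and innate lymphoid cells summed to 18.7 to 39.9 CPM in the 3-of-10 cells and 2.30 to 10.8 in other T cells, higher in 8 of 8 libraries. The γδ constant genes summed to 22.7 to 162 and 16.9 to 65.4 CPM, also higher in 8 of 8, and their part in the results was not tested. Myeloid markers summed to 3.25 to 11.3 and 2.43 to 5.10 CPM and were higher in 8 of 8. The B and plasma cell markers summed to 90.0 to 225 and 109 to 222 CPM, higher in 3 of 8, with Pax5, Bank1, Jchain and Mzb1 at 0. Igkc, an immunoglobulin light chain, was at 17.1 ± 16.3 CPM against 3.36 ± 1.49 (2.07 higher on the log2 scale, 8 of 8 libraries) and at 61.9 CPM in the first of the clusters described below. Since Myb was detected in 39.2%, Epcam in 18.5% and Itgax in 5.78% of the 3-of-10 cells, the cells are named here by their rule and not by these markers. Detection of the 10 genes must rise with the number a cell carries, so it was not read across these groups.

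V segments, which tell invariant receptors from diverse ones, were read from the 3′ transcripts. Trav11, the segment of invariant NKT cells, led in 0 of 632 3-of-10 cells with a detected alpha V segment, which allows a share of up to 0.475%. It led in 16 of 30083 other T cells and 3 of 8798 other CD8-gated cells, so it was too rare in these libraries for the 0 to tell the cells apart. In cells with 5 or more of the genes the 0 of 116 allows up to 2.59%. Trav1, the segment of MAIT cells, led in 8 of the 632 cells (1.27%) and in 1 of the 116. Its share was 1.00% in other CD8-gated cells and 0.864% in all other T cells. Trav16n led in 17.2% of the 632 cells, in 12.9% of the 116 with 5 or more genes, in 16.8% of other CD8-gated cells and in 9.69% of all other T cells. Among beta segments Trbv13-2 led in 10.8% of 601 cells against 10.6% of other CD8-gated cells, and 22 different segments were seen. In the cells with 5 or more of the genes, 42 alpha segments were seen in 116 cells. These shares were not tested. Summed counts were also compared with other T cells of the same library. Of 83 alpha and beta V segments 2 were higher and 13 lower by edgeR (median -0.44 on the log2 scale). Over all 13749 genes tested in that comparison, 11.1% were higher and 14.4% lower.

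When the 3-of-10 cells were clustered without the 10 genes, 9 clusters formed. They were built without batch correction from 2000 variable genes. T cell receptor and immunoglobulin segment genes, Xist, Tsix and Y-linked genes were left out as well. Other genes were open to the clustering, so levels by cluster are a description. Cluster 1 (302 cells) led with S100a4 and had 13914 CPM of Ccl5, cluster 2 (236) with Dapl1, and cluster 3 (220) with Gzmm and Klra1. Cluster 5 (195 cells) led with Itgax, Sox4, Tubb2b and Rps6ka5, carried 5.14 of the 10 genes on average and held 67 of the 109 cells with 6 or more. Of its cells 84 had neither coreceptor, 78 were CD8-gated and 30 were CD4-gated. Myb stood at 527 CPM in cluster 5 and at 26.3 in cluster 1.

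Some clusters came mostly from 1 harvest day. Cluster 4 (211 cells, led by Ppp1r15a and Maff, stress-response genes) had 109 cells from the vehicle and 97 from the PPCA library of day 4, and held 25 of the cells with 6 or more genes. Cluster 6 (108 cells) led with Cxcl13, Penk and Il21 and had 70 cells from PPCA day 4. Cluster 7 (65 cells) led with Ifit3, Ifit1 and Isg15 and held 22 cells of active disease, 23 and 16 of PPCA days 2 and 3, and 1 and 3 of vehicle days 2 and 3, and cluster 8 (63 cells) with Tnfrsf9. Only 9 cells of cluster 5 came from day 4, so its size is not comparable across days. In cluster 9, with 19 cells and 14 of them in neither gate, Fcer1g, Tyrobp and Ncr1 led. It held 149 of the 153 UMIs of Fcer1g, 78 of the 80 of Tyrobp and 72 of the 80 of Ncr1 in all 3-of-10 cells.

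**Figure D2:**
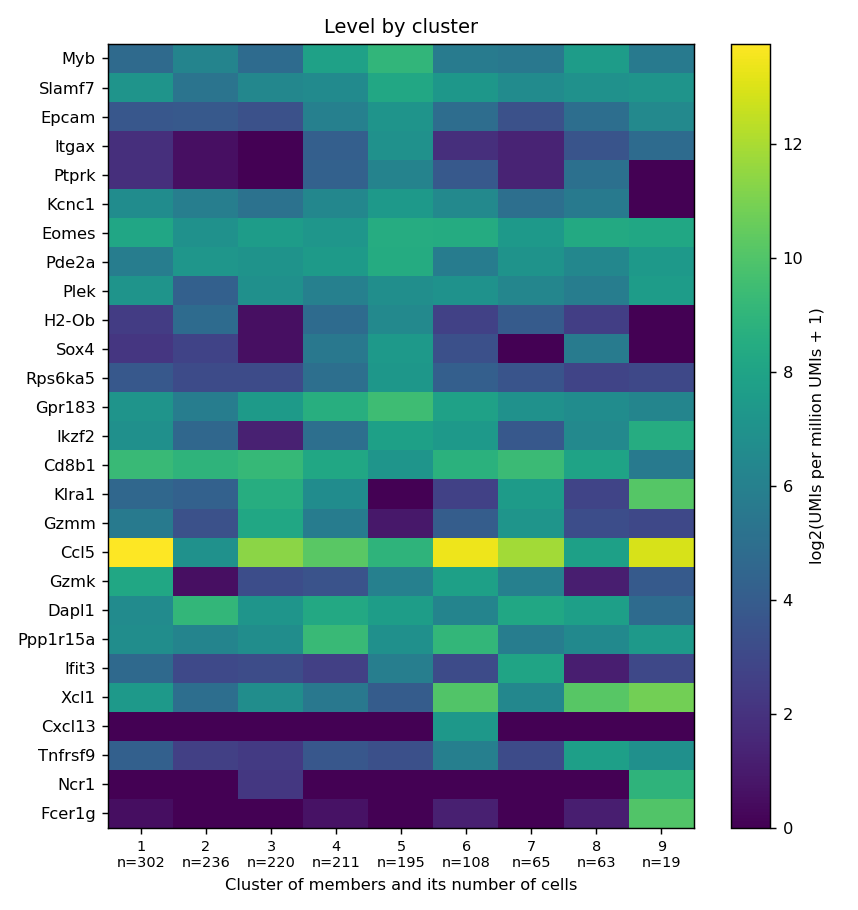
Level of the 10 genes and of genes that mark clusters (rows) in each cluster of the 3-of-10 cells (columns, number of cells below), as log2 of CPM plus 1. Cluster 5 has the highest Myb, Itgax and Sox4, and Ncr1 and Fcer1g are confined to cluster 9 but for 8 UMIs of Ncr1 and 4 of Fcer1g.

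Summed over each library and compared with the other T cells of the same library, the 3-of-10 cells differed in 3517 of 13749 genes (25.6%): 1531 were higher (11.1%) and 1986 lower (14.4%), by the quasi-likelihood test of edgeR with library as a block and an adjusted p under 0.05. With DESeq2 size factors in the same fit 1765 were higher and 1561 lower. The 10 genes and the gate genes are in the fit and are not read. The other genes were measured in cells chosen by correlated transcripts, and the lists were set with results of these data known. Among the other genes, receptor segments left out, with at least 20 CPM and 1 sign in 8 of 8 libraries, the highest were Klra7, Gzmm, Klra1, Ctla2b and Gzma. Klra1 was at 47.8 to 186 CPM in the 3-of-10 cells against 3.08 to 10.9 in other T cells of the 8 libraries (log2 fold change 3.96, SE 0.0890, adjusted p = 5.46e-39), and the ranges did not overlap.

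Genes of cytotoxic granules were higher too. Of 15 cytotoxic and effector genes, 14 were higher, with a list median of 2.05 on the log2 scale against -0.04 over all genes tested. Gzmm averaged 77.2 ± 29.0 CPM (SD, n = 8) against 4.55 ± 2.43 and was 4.04 higher on the log2 scale. Gzma, also a granzyme, averaged 132 ± 133 CPM and ranged from 7.57 in PPCA day 3 to 369 CPM in PPCA day 4. Of its 1304 UMIs, 746 lay in cluster 1 and 466 in the 19 cells of cluster 9, and PPCA day 4 had 4 cells in each of these clusters. The XCR1 ligand gene Xcl1 was 3.35 higher, Gzmb 2.59 higher and Gzmk 2.59 higher on the log2 scale.

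Receptors shared with NK cells moved alike. Of 16 such genes 14 were higher, with a list median of 2.54. Klra7 was 4.20 and Klre1 2.73 higher on the log2 scale. Il2rb, the interleukin-2 and interleukin-15 receptor chain, averaged 195 ± 48.9 CPM against 58.4 ± 13.2 and was 1.63 higher. Sh2d1a, the SLAM adaptor SAP, was 1.12 higher. The adaptor genes Fcer1g (2.32 higher) and Tyrobp (3.34 higher) came almost wholly from the 19 cells of cluster 9.

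Other surface and control genes followed. Of 11 checkpoint and exhaustion genes 8 were higher, among them Lag3 (2.00 on the log2 scale), Havcr2 (2.55) and Tox2 (1.94). Of 15 effector transcription factors 12 were higher and 1 lower; Zeb2 was 2.42, Tbx21 (T-bet) 2.12, Runx2 2.11 and Id3 1.33 higher. The chemokine receptor genes Cxcr5 (2.82) and Cx3cr1 (2.74) were higher, with 8 of 12 higher and 3 lower in all. Of 20 cell cycle genes 15 were higher. Mki67 averaged 14.8 ± 15.7 CPM against 2.46 ± 0.904, with 42.0 CPM in PPCA day 2 and 0 in PPCA day 3.

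**Figure D3:**
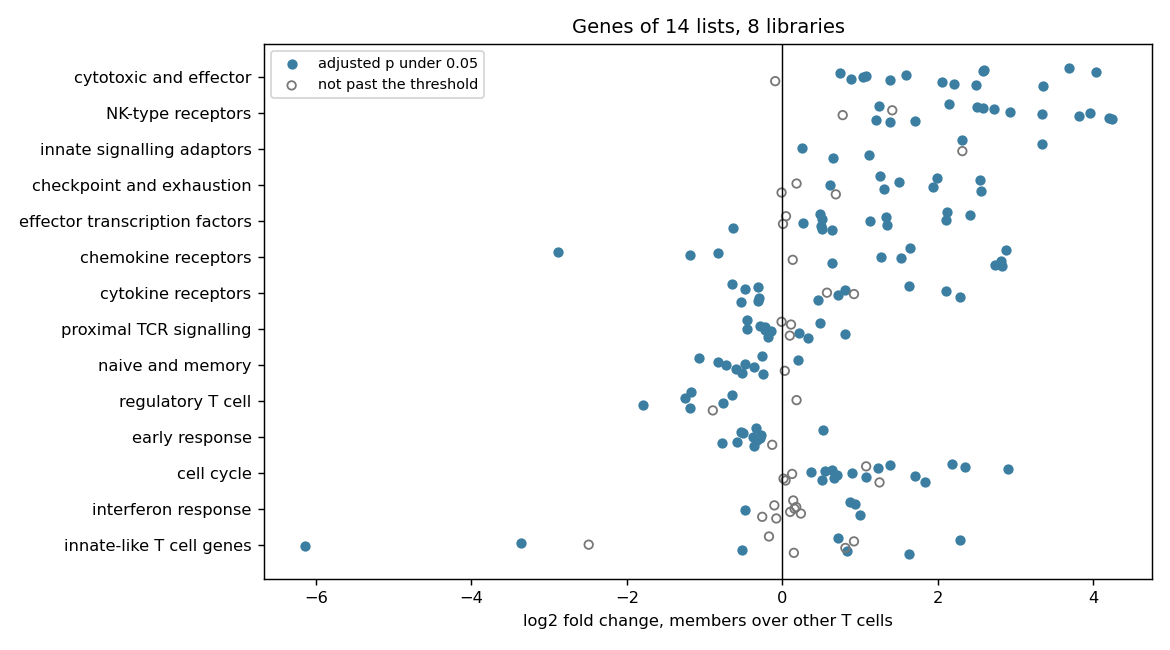
Log2 fold change of 3-of-10 cells (members) over other T cells (x axis) for the genes of 14 lists (rows), from 8 libraries; filled points pass an adjusted p of 0.05 and open points do not. Cytotoxic (14 of 15) and NK-type receptor genes (14 of 16) are higher, and naive and memory genes (9 of 11) lower.

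The lower genes included Pdlim4, Cd40lg and Igfbp4. Pdlim4 fell by 3.07 and Cd40lg (the CD40 ligand of helper cells) fell by 2.98 on the log2 scale, with Cd40lg at 8.50 ± 6.30 CPM against 61.2 ± 15.8. Igfbp4 fell by 2.47 on the log2 scale, at 32.3 to 112 CPM against 281 to 480. Zbtb7b, the CD4 lineage factor ThPOK, averaged 8.03 ± 2.99 CPM against 35.1 ± 11.4. Of 11 naive and memory genes 9 were lower, led by Lef1 at 381 ± 53.3 CPM against 749 ± 96.8. Of 8 regulatory T cell genes 6 were lower, Foxp3 at 7.38 ± 6.69 CPM against 14.8 ± 5.72, and of 12 early response genes 10 were lower and Fosb 0.53 higher.

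Coreceptor make-up moved with many of these genes, so CD8-gated cells were also compared with CD8-gated cells. There 938 of 11528 genes (8.14%) were higher and 923 (8.01%) lower. Cytotoxic genes were higher in 14 of 15, NK-type receptors in 12 of 14, checkpoint genes in 9 of 11, and naive and memory genes lower in 8 of 11. Other counts did not hold there: of 12 early response genes 3 were lower and 2 higher, of 7 regulatory T cell genes 2 were lower and 1 higher, and of 4 γδ constant genes 0 were higher, against 3 in all cells. Klra1 was 3.10, Gzmm 3.12 and Ctla2a (a protease inhibitor gene) 2.35 higher on the log2 scale. Zbtb7b did not pass the threshold there (-0.61, adjusted p = 0.166 in edgeR), nor did Ncr1 (-1.46). Among the thinned cells 1446 of 11271 genes (12.8%) passed, 426 higher (3.78%) and 1020 lower (9.05%). There cytotoxic genes were higher in 10 of 15 and cell cycle genes in 3 of 15, with Klra1 2.55 higher. Checkpoint genes were higher in 4 of 11 there. Gzmb (1.38, adjusted p = 0.102), Havcr2 (0.58, 0.802), Tox2 (1.16, 0.245), Tbx21 (0.41, 0.755) and Mki67 (1.23, 0.298) did not pass the edgeR test in thinned cells. Pancreatic acinar RNA moved with the comparison: Ctrb1 was at 8.90 ± 8.87 CPM in the 3-of-10 cells against 26.5 ± 17.5, and its part in the results was not tested.

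The authors' deposited table of cluster markers lists 6 of the 10 genes. Eomes, Slamf7, Plek and Kcnc1 were listed under their CD8 TRM TEM cluster, with Eomes at a log2 fold change of 1.36 and in 36.5% of its cells. Pde2a was listed in the authors' deposited table under CD8 TCM, in 18.7% of cells, and Myb under CD4 Th0, in 10.3%. Epcam, Itgax, Ptprk and H2-Ob were not among its listed genes. Of the 15 named genes that were highest in the 3-of-10 cells, 9 were listed in the authors' deposited table under CD8 TRM TEM. Another listing was 1 under CD4 Th17, with 0 under CD8 TCM and the other CD4 clusters. The deposited table belongs to the same series, and the number of genes listed per cluster was not set beside these counts.

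The share of 3-of-10 cells among T cells was 3.30% (exact 95% interval 2.91 to 3.73) in active disease and 1.12% (0.927 to 1.34) at onset. These are 1 library each, and the intervals cover counting error only. The share depends on depth, and the 3-of-10 cells had medians of 9828 UMIs in active disease and 6542 at onset. In cells thinned to 2000 UMIs the share was 0.551% in active disease, 0.281% at onset and 0.233% to 0.731% in the other 6 libraries. Vehicle libraries held 3.23%, 1.97% and 1.32% on days 2, 3 and 4, and PPCA libraries 1.89%, 1.53% and 1.45%. The mean difference of PPCA from vehicle was -0.548 percentage points (day differences -1.33, -0.440 and 0.129; exact two-sided sign-flip test, p = 0.5, where 3 pairs cannot go below 0.25). PPCA and vehicle libraries averaged 1.62% ± 0.237 and 2.17% ± 0.969 (SD, n = 3), and the mean difference was smaller than the SD of the day differences, 0.737 points. In thinned cells it was -0.110 points and with 4 or more genes -0.315, both negative on 3 of 3 days (exact p = 0.25). As a share of CD8-gated T cells, CD8-gated 3-of-10 cells were at 8.93%, 4.18% and 3.03% on the vehicle days and 4.76%, 3.19% and 2.62% with PPCA, lower in 3 of 3 pairs (mean difference -1.86 points, exact sign-flip p = 0.25). Cells with 5 or more of the genes made up 0.641% in active disease and 0.114% to 0.520% elsewhere.

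**Figure D4:**
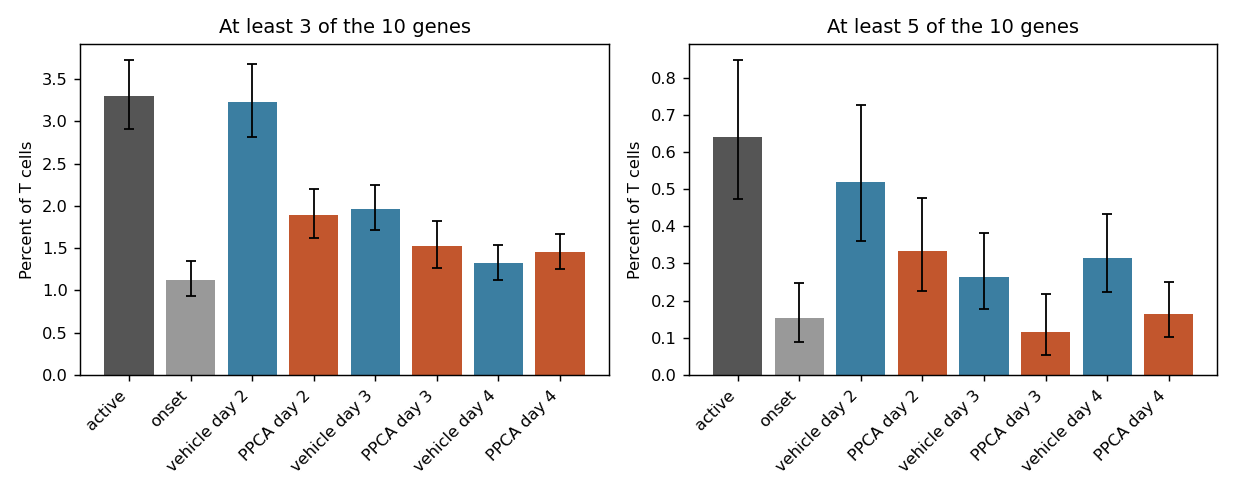
Percent of T cells in each library with at least 3 (left) or at least 5 (right) of the 10 genes; bars are the share and lines the exact 95% interval, which covers counting error only, with no matching of depth. Active disease (3.30%) and vehicle day 2 (3.23%) are the highest at 3 genes, and onset (1.12%) is the lowest.

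The 3-of-10 cells of onset and active disease were compared gene by gene. Of 1518 genes that reached 100 CPM in either library, 51 (3.36%) differed by at least 2-fold, 44 of them higher at onset. Gzma stood at 185 CPM at onset and 8.68 in active disease, and Ifng at 164 and 16.2 CPM. Ccl4 stood at 575 and 72.8 CPM, Ccl3 at 180 and 23.0, and Itga1, the CD49a integrin chain, at 104 and 11.3. In the other T cells of these libraries Gzma was at 4.69 and 4.71 CPM, while Ifng (34.9 and 7.93), Ccl4 (68.5 and 20.2), Ccl3 (19.6 and 4.21) and Itga1 (21.6 and 13.1) were also higher at onset. The 3-of-10 cells of the 2 libraries were spread over the clusters in different proportions: cluster 1, with Gzma at 332 and Ccl4 at 622 CPM, held 56 of 117 onset cells and 40 of 247 active cells. Cluster 2, with 0.906 and 4.98 CPM, held 14 and 83. Cluster 9, with Gzma at 3210 CPM and Itga1 at 262, held 4 and 2. Of the 10 genes Slamf7 was at 122 CPM at onset and 65.3 in active disease, and Myb at 76.9 and 116. With 1 library each, no test was possible.

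PPCA against vehicle gave 0 of 8509 genes (0%) past an adjusted p of 0.05 in the 3-of-10 cells by edgeR with day as a block, while 480 had an unadjusted p below 0.05. With DESeq2 2 genes passed and with limma-voom 4. Without the low-count filter edgeR called 47 higher and 32 lower, and with Xist as a further factor 47 and 36. In the fit with day as a block the p53 targets Cdkn1a (0.76), Mdm2 (0.08) and Ccng1 (-0.02) did not pass, nor did the proliferation gene Mki67 (0.42). In the cells, Mdm2 was at 49.6, 37.1 and 50.0 CPM on days 2, 3 and 4 of vehicle, with 61.2, 41.1 and 44.2 in the PPCA libraries.

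Interferon-stimulated genes differed between the arms on days 2 and 3, without passing the threshold. Ifit3, an antiviral effector, was at 15.4, 9.42 and 10.6 CPM on the 3 days of vehicle and 114, 73.6 and 4.82 with PPCA (2.30 on the log2 scale, adjusted p = 0.104, edgeR). Isg15, a ubiquitin-like modifier, was at 41.1, 39.2 and 23.5 CPM and 145, 118 and 8.04 (1.16, adjusted p = 0.591, edgeR). PPCA libraries were above vehicle on days 2 and 3 and below it on day 4 for both genes. Cluster 7, with Ifit3 at 261 CPM, held 23 and 16 of the PPCA cells on days 2 and 3 and 1 and 3 of the vehicle cells. All 12 genes of the list had a positive log2 fold change, with a median of 1.14 against 0.00 over all genes, and 0 passed. Without the day 4 libraries, 10 of the 12 passed among 109 genes called by edgeR, and without day 2 or day 3 none of the 9 that could be tested did. Day 3 was the only day on which the arms matched in Xist. The response of Ifit3 in the 3-of-10 cells differed from that in other T cells by -0.18 on the log2 scale (adjusted p = 1, edgeR interaction).

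The interaction of PPCA with cell class passed the threshold for 24 of 13468 genes (0.178%) by edgeR, 7 with a higher (0.052%) and 17 with a lower (0.126%) response in the 3-of-10 cells, and for 0 by DESeq2 and 0 by limma-voom. At an unadjusted p under 0.05 edgeR had 594. Xcl1 in the 3-of-10 cells was at 254, 139 and 86.4 CPM on days 2, 3 and 4 of vehicle and at 260, 396 and 341 with PPCA, and at 28.3, 14.4 and 22.7 against 42.1, 11.8 and 33.6 in other T cells. Its response was 0.83 higher on the log2 scale in the 3-of-10 cells (SE 0.114, adjusted p = 3.66e-09, edgeR), while PPCA against vehicle within the 3-of-10 cells did not pass for it (1.13, adjusted p = 0.311, edgeR). Of the 2847 UMIs of Xcl1, 955 lay in cluster 8 and 793 in cluster 6, which held 70 cells of PPCA day 4 and 26 of vehicle day 4. Slfn5 followed with 0.92 and Lag3 with -1.19. These genes were named after their values were seen.

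**Figure D5:**
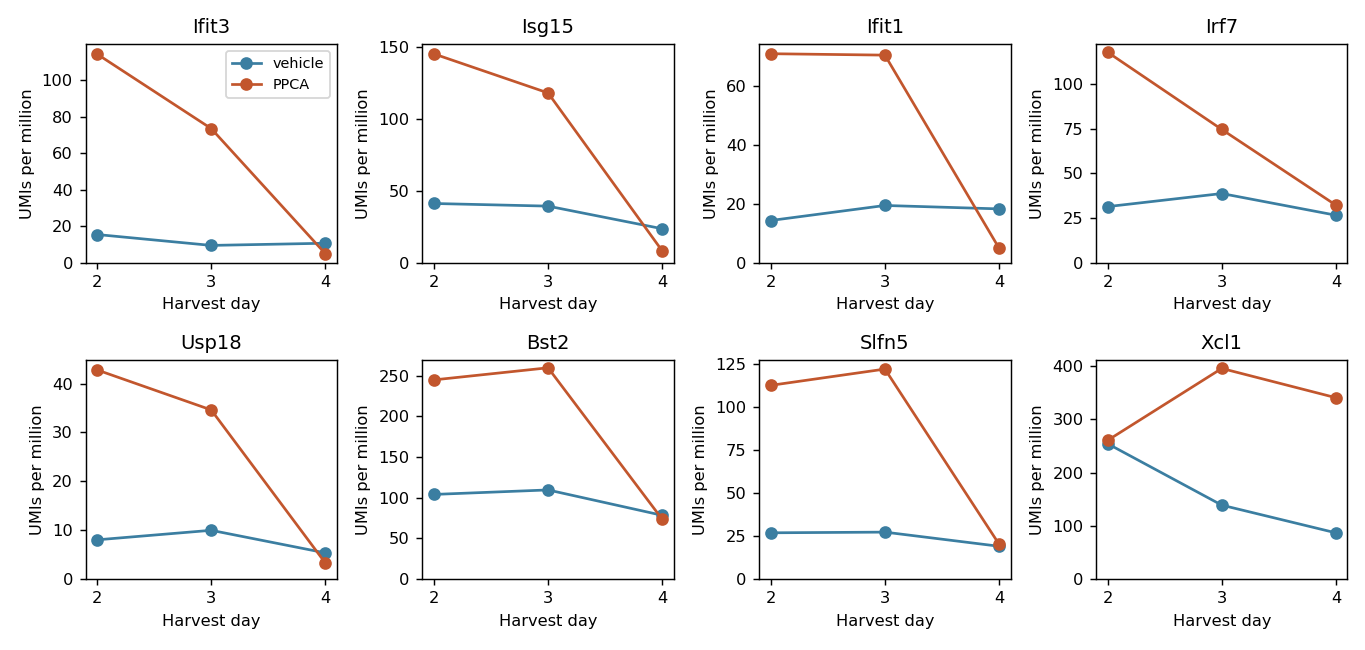
Level in the 3-of-10 cells in CPM (y axis) by harvest day (x axis), 1 library per point, vehicle in blue and PPCA in orange. The 8 panels are 7 interferon-stimulated genes and Xcl1; Ifit3 is 114 under PPCA and 15.4 in vehicle on day 2, and 4.82 and 10.6 on day 4.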

How the data were processed

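Gene counts per barcode were deposited by the authors as UMI count matrices of 32285 features, written by Cell Ranger 6.0.0 per the file headers. The submitters' processing notes name Cell Ranger 6.1.2 and Seurat. No genome build is given in the sources used here. The marker table deposited by the authors gives log2 fold changes, p-values and fractions of cells. It was used for listing only.

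Cells were filtered and chosen by the rule in the report. The members, the gene lists and the tests were chosen with earlier results of these data known. UMIs were summed per library for the 3-of-10 cells and the other T cells. Sums were tested with edgeR 4.0.16 (quasi-likelihood, TMM, Benjamini-Hochberg over all genes tested) in R 4.3.3, with library as a block for the cell classes and day as a block for PPCA against vehicle. CPM is the share of a sum scaled to a total of 1000000. DESeq2 1.42.0 and limma-voom 3.58.1 were alternatives. Libraries of the same day deviated together (correlations 0.204, 0.271 and 0.399 over 8509 genes), so day pairs them.

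Named genes outside the rule and gate genes were those with the 15 highest and 10 lowest fold changes (log2) among called genes with 1 sign in 8 of 8 libraries and at least 20 CPM, at most 5 genes of a list, markers of other cell types, and preset PPCA genes. Genes described by the number of rule genes, by cluster or by interaction were picked after their values were seen. Shares were compared by exact sign-flip tests, with exact Clopper-Pearson 95% intervals. Doublets were scored with Scrublet in scanpy 1.11.5 and kept (9.30% of the 3-of-10 cells and 8.69% of other T cells); their removal was an alternative. Clusters used 2000 variable genes, 20 components, 15 neighbours and a Leiden resolution of 0.5. On simulated counts with 200 genes changed 2-fold, the cell class test recovered 71.5% with 11 false calls, the PPCA test 63.5% with 18 (beside 127 true calls) and the interaction test 39.5% with 6. Some genes, Mx1 among them, are not reported here.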

Additional observations from a re-analysis of the deposited data

Results flagged for a closer look

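The effect of PPCA differed between the 3-of-10 cells and the other T cells, by the edgeR interaction term at an adjusted p under 0.05, for 24 genes. With DESeq2, with limma-voom and without the replicate block 0 genes passed. The values are the log2 effect in the 3-of-10 cells minus that in other T cells. It was higher for Pnlip (3.62), Cxcl10 (2.41), Ctrb1 (1.82), Egr3 (1.16), Slfn5 (0.92), Xcl1 (0.83) and Ddx58 (0.62). Pnlip and Ctrb1 are pancreatic acinar genes, at 0 to 6.12 and 0 to 23.8 CPM in the 3-of-10 cells of these libraries.

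It was lower for Spp1 (-6.72), Tmem176b (-4.62), Trav13-2 (-3.68), Loxl2 (-3.59), Neb (-2.90), Abca1 (-1.31), Lag3 (-1.19), Tcrg-C2 (-1.15) and Lgals3 (-1.13). Smaller negative differences were those of Rgs16 (-0.82), Ctla4 (-0.68), Igfbp4 (-0.57), Ahnak (-0.54), S100a4 (-0.45), Ccl5 (-0.41), Ctla2a (-0.38) and S100a6 (-0.33). Spp1 was at 24.3 CPM in the 3-of-10 cells of vehicle day 4 and at 0 to 1.08 CPM in the other 5 libraries of the comparison. The next largest differences also rest on few UMIs. In the 3-of-10 cells of these libraries Tmem176b was at 0 to 4.55 CPM, Trav13-2 at 0 to 7.98, Neb at 0 to 6.84 and Loxl2 at 0 to 15.9.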

How the results depend on the processing

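Against 1531 higher and 1986 lower genes in the 3-of-10 cells by edgeR, CD8-gated cells gave 938 and 923, CD4-gated cells 268 and 652, cells within the interquartile depth range 1006 and 1296, and thinned cells 426 and 1020. limma-voom gave 2738 higher and 1625 lower, DESeq2 1568 and 1259, edgeR with DESeq2 size factors 1765 and 1561, and libraries with Xist 1039 and 1190. Without libraries as a replicate block the counts were 856 and 655. Leaving out 1 library gave 1304 to 1479 and 1833 to 1957.

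PPCA against vehicle called 0 genes, also with DESeq2 size factors. DESeq2 called 2, limma-voom 4, removal of doublets 2, cells with 4 or more of the 10 genes 5, no low-count filter 79 and Xist as a further factor 83. Leaving out a day gave 0 to 109, the latter without day 4. The 24 interaction genes became 15 with 4 or more genes, 0 with DESeq2, 0 with limma-voom and 0 without the replicate block, and 14 to 24 when a day was left out. Without that block PPCA against vehicle called 0 genes, and the exact p of the difference in share (-0.548 points) was 0.6; leaving out a day gave -0.887 to -0.156 points.

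The CD8-gated excess was 53.4 points in the 4 libraries with Xist (exact p = 0.125, the smallest 4 allow) and 46.8 to 51.2 with 1 library left out. The deficit of cells with neither coreceptor was -8.41 points in those 4 (exact p = 0.125) and -11.3 to -9.75 with 1 left out. It turned to 0.108 with 4 or more genes and to 4.62 in thinned cells.

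Of 1642 genes called both in all cells and in CD8-gated cells, 1620 kept their direction; Cxcr6 (0.65 and -0.38) and Itga1 (0.77 and -0.58), picked after their values were seen, did not. Among the genes tracked by name the direction changed for Ncr1 (-1.46), Trdc (0.015) and Tcrg-C4 (-0.032) in CD8-gated cells, for Tnfrsf4 (0.40), Zeb2 (-0.38) and Foxp3 (1.01) in CD4-gated cells, and for Trdc (0.35) in the interquartile depth range. For PPCA it changed for Mdm2 with 4 or more genes (-0.30), Ccng1 without doublets (0.045) and Mki67 with DESeq2 (-0.50). With a day left out Mdm2 ran from -0.045 to 0.18 and Ccng1 from -0.18 to 0.12. The cause was not tested. The use of Xist as a factor, of CD8-gated T cells as the denominator, and of libraries with Xist for shares was chosen after seeing the data.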
